A study of Mus musculus with 16 samples.

Results

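The genes described here are 40 imprinted genes with a known role or known expression in the mouse brain, leaving aside the growth regulators around Igf2, which are given only as a comparison list. They were chosen by name, with earlier results of these data known. Their probes were found by matching each probe's transcript accession to the RefSeq gene symbol or synonym, a step that uses no measured value. All 40 had at least 1 probe on the array, 73 probes in all, of which 67 were kept. Of the 40 genes, 38 were well above background and were tested, among the 26477 genes and features tested in the whole series. The maternally expressed potassium channel gene Kcnk9 and the paternally expressed retrotransposon-derived gene Rtl1 each had 1 probe that was not well above background on any of the 16 arrays, so neither was tested.

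RNA came from the brains of C57BL/6 mice on postnatal day 1 (P1), with 4 animals in each of 4 groups and 1 one-colour Agilent array per animal. The heated group descended from spermatozoa that had been freeze-dried (FD) and kept at 95 °C for 1 h, the irradiated group from FD spermatozoa given 5 Gy of X-rays, the freeze-dried group from FD spermatozoa with neither treatment, and the fresh group from spermatozoa that were not dried. Freeze-drying is thus shared by the first 3 groups, and the comparisons ask whether heat or X-rays on dried sperm, or drying itself, leave a trace in the brain of the offspring. How the eggs were fertilised and which animals share a litter is not given in the sources used here, and p-values would come out too small if littermates were among them.

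Imprinted genes are transcribed mainly from 1 parental copy, because methylation set in the egg or the sperm marks an imprinting control region and is kept through the divisions of the embryo. Most lie in clusters in which a long non-coding RNA and protein-coding genes are read from opposite parental copies. In the brain they act in feeding, maternal care, growth and synapse function, and the loss of human SNRPN, NDN, MAGEL2 or UBE3A expression underlies the Prader-Willi and Angelman syndromes. By textbook knowledge of the mouse, 20 of the 40 are paternally expressed (19 tested), 17 maternally expressed (16 tested) and 3 depend on the transcript or tissue (Gnas, Inpp5f and Ddc). The maternally expressed genes Kcnq1, Ppp1r9a, Osbpl5, Tssc4 and Cd81 are imprinted mainly outside the brain, above all in the placenta. The array reads the total RNA of a gene and does not separate the 2 parental copies. Of the 40 genes, 34 code for proteins and 6 are long non-coding RNAs (Meg3, Rian, Mirg, Peg13, Kcnq1ot1 and Airn). They lie on 9 chromosomes, 15 of them on chromosome 7.

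Levels are given on the log2 scale after dividing each array by its own 75th percentile, so they compare animals for 1 probe and not 1 gene with another. Between 59.9% and 66.1% of the spots of an array were well above background, no spot was saturated, and the number of arrays limits the precision. The arrays came from 2 slides: the 4 heated animals were on slide 2, the 4 freeze-dried animals on slide 1, and the irradiated and the fresh group were split, with animals 1 and 2 of each on slide 1 and the rest on slide 2. Heated and freeze-dried animals therefore shared no slide. Between the slides, 0 of the 38 imprinted genes were called by limma within the fresh group, beside 2.1% of all genes and features, and 6 had an unadjusted p under 0.05, beside 20.3%. Within the irradiated group 0 were called, beside 0.00755%, and 2 had an unadjusted p under 0.05, beside 10.2%. All 5 neuron markers were above background in every group, and their summed linear signal, taken over the 4 with a value on each array (Tubb3 was left out), was 172 to 183 in heated, 165 to 167 in irradiated, 161 to 171 in freeze-dried and 164 to 178 in fresh animals. The 7 hindbrain and spinal cord markers, 6 of them Hox genes, summed to 0.181 to 7.01 in heated, 2.32 to 7.68 in irradiated, 1.17 to 7.28 in freeze-dried and 0.339 to 8.48 in fresh animals, with low values in heated 2 and 4, freeze-dried 2 and fresh 2. The 4 cerebellum markers summed to 0.538 to 3.74 in heated and 2.72 to 3.24 in irradiated animals. Freeze-dried animals were at 3.00 to 3.32 and fresh animals at 2.81 to 3.22. Heated 2 and 4 were the low ones, with Pcp2 at -2.55 and -3.73, against 0.81 to 1.24 in every other animal. Fresh 1 stood apart in skeletal muscle markers (summed signal 14.3, against 0.903 to 1.55 in the heated, irradiated and freeze-dried groups) and freeze-dried 2 in skin markers (43.5, against 3.28 to 3.83 in the heated, irradiated and fresh groups). In a bulk sample, fewer cells of a type and less RNA per cell cannot be told apart.

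Heated offspring, set against freeze-dried offspring, had lower levels of 2 imprinted genes. Nnat, which encodes a small membrane protein of the endoplasmic reticulum in developing neurons, fell by 18.1%. Trappc9, which encodes a subunit of a vesicle tethering complex and is needed for normal brain size in humans, fell by 19.3% on its brighter probe. Its dimmer probe ran the other way. The other 36 did not pass the test, and with the slide as a block neither Nnat nor Trappc9 passed. These 2 of 38 genes (limma, Benjamini-Hochberg adjusted p under 0.05 over all 26477 genes and features) stand beside a background of 3.86% of all genes and features called, 1.36% lower and 2.5% higher. The median log2 difference was -0.03 over the 38 imprinted genes and 0.02 over all genes and features, with 17 higher and 21 lower.

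Nnat is paternally expressed and sits in an intron of the maternally expressed Blcap. Its log2 level was 6.02, 6.13, 6.02 and 6.17 in the 4 heated animals and 6.35, 6.33, 6.44 and 6.37 in the 4 freeze-dried animals. All heated animals lay below all freeze-dried animals, and the log2 difference was -0.29 (SE 0.075, adjusted p = 0.0475). Irradiated animals were at 6.39, 6.29, 6.09 and 6.34 and fresh animals at 6.34, 6.41, 6.13 and 6.26, and in both groups the lowest value belonged to an animal on slide 2. Slide 2 minus slide 1 was -0.13 (SE 0.091) within irradiated and -0.18 (SE 0.091) within fresh animals. With the slide as a block in the same limma fit, the difference was -0.13 (SE 0.089, adjusted p = 0.796), and within slide 2 heated animals differed from fresh animals by -0.11 (SE 0.091). Blcap, the host gene, which encodes a small protein implicated in apoptosis, differed by -0.07 (SE 0.063) and did not pass.

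Trappc9 is maternally expressed in the mouse brain and hosts the paternally expressed RNA Peg13. Its brighter probe read 3.08, 3.12, 3.14 and 3.15 in heated and 3.48, 3.48, 3.43 and 3.34 in freeze-dried animals. The 2 groups did not overlap, and the log2 difference was -0.31 (SE 0.079, adjusted p = 0.0458). Irradiated animals were at 3.42, 3.36, 3.24 and 3.20 and fresh animals at 3.26, 3.44, 3.01 and 3.26, and slide 2 minus slide 1 was -0.18 (SE 0.088) within irradiated and -0.21 (SE 0.088) within fresh animals. With the slide as a block the difference was -0.12 (SE 0.085, adjusted p = 0.831), and within slide 2 heated and fresh animals differed by -0.01 (SE 0.075). The dimmer of the 2 Trappc9 probes, assigned to another RefSeq transcript of the gene, ran the other way: it read -2.93, -3.00, -2.88 and -3.21 in heated and -3.54, -3.49, -3.84 and -3.15 in freeze-dried animals, a log2 difference of 0.50 (SE 0.18, adjusted p = 0.112 over all probes in limma). The mean of both probes gave 0.10 (SE 0.083, adjusted p = 0.518) with limma, so the lower level of Trappc9 rests on the probe chosen. Peg13 itself differed by -0.032 (SE 0.056).

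Both calls ended in several settings. The slides are one, and the Y-linked signal another: it was high in heated 4 alone of the heated animals but in all 4 freeze-dried animals (10 of 16 animals in all). With that signal as a covariate, an alternative chosen after seeing the data, Nnat differed by -0.25 (SE 0.09, adjusted p = 0.21) and Trappc9 by -0.21 (SE 0.083, adjusted p = 0.249) in limma. Leaving out any 1 of the 4 heated or 4 freeze-dried animals left the log2 difference between -0.32 and -0.27 for Nnat and between -0.34 and -0.29 for Trappc9, but no animal of these groups could be left out without the limma call being lost for both genes (adjusted p up to 0.118 for Nnat and 0.116 for Trappc9), and omitting fresh 4 or irradiated 2 also ended both. Without the 4 arrays low in Hox genes, Nnat differed by -0.37 (SE 0.097, adjusted p = 0.198) and Trappc9 by -0.31 (SE 0.099, adjusted p = 0.248) in limma. Limma called 10 of 75 marker genes between these groups, beside 3.86% of all genes and features. The summed signals of neuron markers (172 to 183 against 161 to 171), monoamine neuron markers (14.2 to 17.2 against 12.9 to 13.2), microglia markers (13.9 to 14.8 against 12.2 to 12.5) and skeletal muscle markers (0.903 to 1.04 against 1.06 to 1.55) did not overlap between these groups. The neuron separation rests on leaving out Tubb3, which overlapped (6.04 to 6.41 in heated, 6.08 to 6.23 in freeze-dried animals). Of these lists, limma called 1 of the 5 neuron, 1 of the 8 monoamine neuron, 0 of the 4 microglia and 0 of the 5 muscle markers tested. Most calls lay in lists whose sums overlapped. They were 2 of the 4 endothelium and 2 of the 11 hypothalamus markers tested, and 1 each of the choroid plexus, meninges, radial glia and oligodendrocyte lineage markers. The monoamine neuron markers did not run together. Nr4a2 was at 2.89 to 3.22 in heated and 2.48 to 2.64 in freeze-dried animals. Tph2 was at -4.26 to -2.29 in heated and -2.31 to -2.06 in freeze-dried animals. The part of the marker differences in the lower Nnat and Trappc9 signals was not tested.

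**Figure D1:**
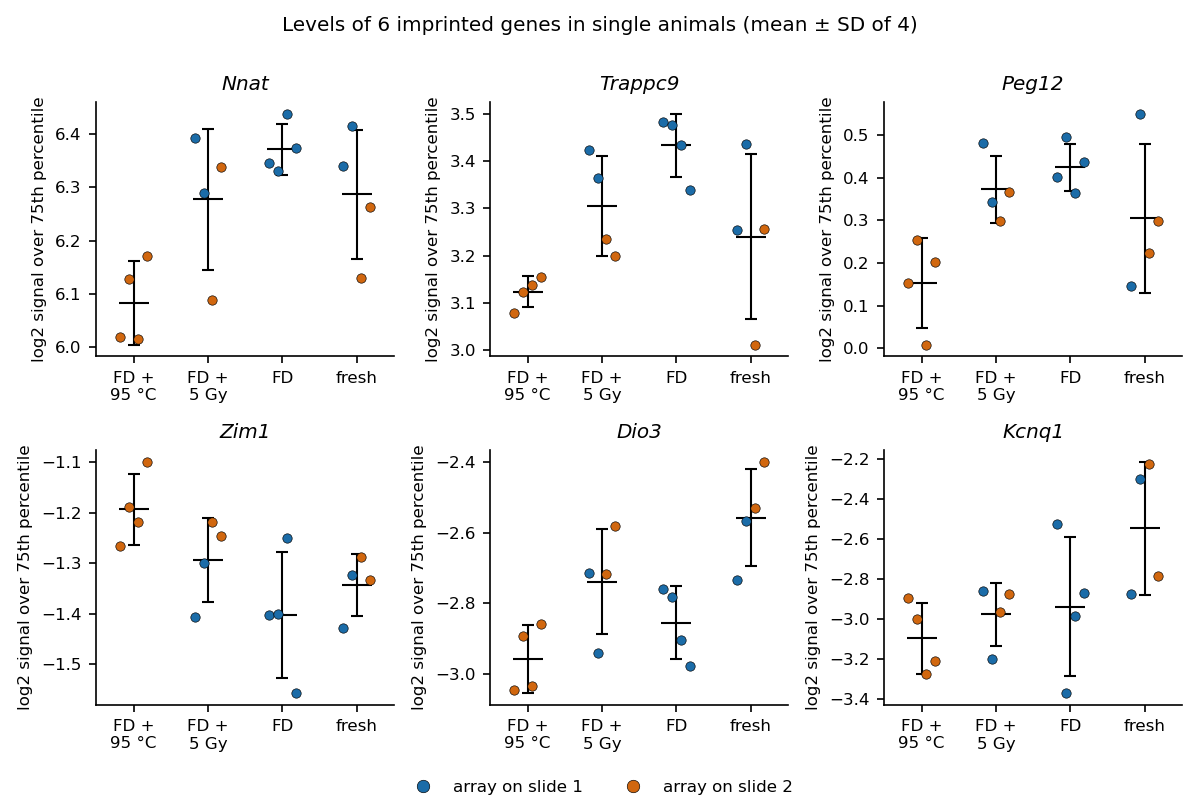
Log2 signal of Nnat, Trappc9, Peg12, Zim1, Dio3 and Kcnq1 in single animals of the heated (FD + 95 °C), irradiated (FD + 5 Gy), freeze-dried and fresh groups, with the mean and SD of 4 animals as bars and the colour of each point giving the slide. Nnat and the brighter Trappc9 probe were lower in each heated animal than in each freeze-dried animal, and Dio3 was lower in each heated animal than in each fresh animal.

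A further 7 imprinted genes had an unadjusted p under 0.05 between heated and freeze-dried animals and did not pass the adjustment, which makes 9 of 38 with the 2 called, beside 23.8% of all genes and features. Among the paternally expressed ones, Peg12, an intronless gene of the Snrpn cluster, was at 0.15, 0.25, 0.008 and 0.20 in heated and 0.40, 0.49, 0.36 and 0.44 in freeze-dried animals. The groups did not overlap, and the log2 difference was -0.27 (SE 0.082, adjusted p = 0.0748) in limma. Mcts2, a retrogene within an intron of another gene, differed by -0.19 (SE 0.08, adjusted p = 0.159) in limma. On the maternal side, Zim1, a zinc finger gene beside Peg3, was at -1.27, -1.19, -1.22 and -1.10 in heated and -1.40, -1.40, -1.25 and -1.56 in freeze-dried animals. Its groups overlapped by 1 freeze-dried animal, and it was the one gene of these 7 with a higher mean, by 0.21 (SE 0.068, adjusted p = 0.0886) in limma. Slc22a18, a membrane transporter gene, differed by -0.29 (SE 0.10), the calcitonin receptor gene Calcr by -0.20 (SE 0.083), Tssc4 by -0.17 (SE 0.063) and Asb4, which encodes part of a ubiquitin ligase, by -0.16 (SE 0.071), with limma adjusted p between 0.114 and 0.19. In all, 9 imprinted genes did not overlap between these groups (Nnat, Peg12, Mcts2, Snrpn, Trappc9, Slc22a18 and Tssc4 lower, Cd81 and Osbpl5 higher), beside 20.3% of all genes and features.

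The promoter windows of Nnat, Peg12, Zim1 and Dio3 are shown because, besides Trappc9, these are the imprinted genes with an unadjusted p under 0.01 between heated and freeze-dried or between freeze-dried and fresh animals. Each runs from 250 bases before to 50 bases after an annotated start on GRCm38.p6, from 5′ to 3′ on the gene's own strand, with every CG dinucleotide in capitals. Whether any of these lies in an imprinting control region was not examined.
Nnat, chr2:157559828-157560127, plus strand: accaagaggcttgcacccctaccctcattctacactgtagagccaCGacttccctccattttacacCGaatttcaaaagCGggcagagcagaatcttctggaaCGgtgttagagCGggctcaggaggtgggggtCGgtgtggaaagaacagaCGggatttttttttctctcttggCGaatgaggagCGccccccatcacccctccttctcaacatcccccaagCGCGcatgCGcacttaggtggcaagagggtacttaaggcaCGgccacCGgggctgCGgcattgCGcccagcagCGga
Peg12, chr7:62464461-62464760, minus strand: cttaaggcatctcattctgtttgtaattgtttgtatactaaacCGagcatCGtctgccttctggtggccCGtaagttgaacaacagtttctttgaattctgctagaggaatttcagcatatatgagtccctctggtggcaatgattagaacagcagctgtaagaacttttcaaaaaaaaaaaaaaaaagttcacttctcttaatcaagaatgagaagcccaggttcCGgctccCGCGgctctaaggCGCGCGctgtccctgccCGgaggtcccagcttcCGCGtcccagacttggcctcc
Zim1, chr7:6696383-6696682, minus strand: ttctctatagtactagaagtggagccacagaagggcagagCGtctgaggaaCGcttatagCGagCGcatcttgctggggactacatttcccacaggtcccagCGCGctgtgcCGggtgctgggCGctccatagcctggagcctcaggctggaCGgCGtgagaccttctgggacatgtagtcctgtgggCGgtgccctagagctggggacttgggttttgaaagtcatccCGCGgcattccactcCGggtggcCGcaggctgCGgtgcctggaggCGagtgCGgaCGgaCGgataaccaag
Dio3, chr12:110278980-110279279, plus strand: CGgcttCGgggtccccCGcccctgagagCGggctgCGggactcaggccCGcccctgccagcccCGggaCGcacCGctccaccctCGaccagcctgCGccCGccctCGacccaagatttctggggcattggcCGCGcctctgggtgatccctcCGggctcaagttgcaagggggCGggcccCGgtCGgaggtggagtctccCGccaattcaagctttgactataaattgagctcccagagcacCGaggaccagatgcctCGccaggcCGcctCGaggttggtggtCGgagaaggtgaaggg
The Dio3 window held 25 CG dinucleotides, the Zim1 window 20, the Nnat window 17 and the Peg12 window 12. Over the 48 windows of the 32 imprinted genes that had one, the median was 12.5, against 7 over all 32851 windows of the same length. The hexamer TGCCGC, which the imprint-keeping protein ZFP57 binds when methylated, was searched on both strands and overlaps the CG count, since it contains one. It occurred in 9 of the 48 windows, or 18.8%, against 11.6% of all windows, and once each in the Nnat and Zim1 windows. Methylation was not measured in these samples.

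Offspring of irradiated FD sperm differed from freeze-dried offspring in none of the 38 imprinted genes, and the same was true of all genes and features (0% of 26477 called by limma, with 7.23% at an unadjusted p under 0.05). Asb4 was the 1 gene of 38 with an unadjusted p under 0.05. It was at 1.32, 1.36, 1.34 and 1.37 in irradiated and 1.56, 1.60, 1.53 and 1.34 in freeze-dried animals, a log2 difference of -0.16 (SE 0.071, adjusted p = 0.685) in limma. Freeze-dried 1, 2 and 3 lay above every irradiated animal and freeze-dried 4 lay within their range. The 38 differences ran from -0.21 for the amino acid transporter gene Slc38a4 to 0.28 for Kcnq1ot1, with a median of -0.03, beside 0.02 for all genes and features. In 15 of the 38 genes the irradiated mean was higher and in 23 lower. For Nnat the 95% interval of the log2 difference was -0.25 to 0.066 and for Snrpn -0.21 to 0.11. Cd81, a tetraspanin gene, was the one imprinted gene whose groups did not overlap, beside 4.6% of all genes and features. Its means differed by 0.081 (SE 0.069), but the lowest irradiated and the highest freeze-dried animal were both at 5.76. On its dimmer probe the groups overlapped (3.09 to 3.24 in irradiated, 3.06 to 3.15 in freeze-dried animals).

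Drying alone gave no called imprinted gene either: freeze-dried against fresh offspring had 0 of 38 called by limma, beside 0% of all genes and features, and 5 at an unadjusted p under 0.05, beside 9.92%. Dio3, which encodes the deiodinase that inactivates thyroid hormone and is read mainly from the paternal copy in the mouse, had the smallest p. It was at -2.76, -2.78, -2.90 and -2.98 in freeze-dried and -2.73, -2.57, -2.53 and -2.40 in fresh animals. The groups did not overlap, and the log2 difference was -0.30 (SE 0.088, adjusted p = 0.358) in limma. Within slide 1, which held all 4 freeze-dried and 2 fresh animals, it was -0.21 (SE 0.11). The other 4 were Slc22a18 (0.28 (SE 0.10)), Impact (0.22 (SE 0.094)), Trappc9 (0.19 (SE 0.079)) and Kcnq1 (-0.39 (SE 0.18)), with limma adjusted p between 0.441 and 0.493. The other probe of Trappc9 (-0.37, SE 0.18) and that of Kcnq1 (0.12, SE 0.15) had the opposite sign. Dio3 and Slc22a18 were the 2 genes whose groups did not overlap, beside 4.15% of all genes and features.

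Against fresh offspring, the heated group shared its reference animals with the irradiated and freeze-dried groups, so the 3 comparisons are not independent. Dio3 was the 1 imprinted gene of 38 that passed between heated and fresh animals, beside 2.93% of all genes and features, 0.54% lower and 2.39% higher. It was at -3.05, -2.89, -3.04 and -2.86 in heated animals, below every fresh animal, and fell by 24.3% (log2 difference -0.40 (SE 0.088, adjusted p = 0.0268) in limma). Irradiated animals were at -2.71, -2.94, -2.72 and -2.58 and overlapped with both. With Y-linked signal added to the fit, the difference between heated and fresh animals was -0.40 (SE 0.092, adjusted p = 0.0394) in limma. Slide 2 minus slide 1 was 0.18 (SE 0.11) within irradiated and 0.19 (SE 0.11) within fresh animals. With the slide as a block the heated minus fresh difference was -0.49 (SE 0.084, adjusted p = 0.0188) with limma. Within slide 2, which held all 4 heated and 2 of the fresh animals, it was -0.49 (SE 0.083, adjusted p = 0.118), where none of all genes and features passed limma. The limma call was lost without heated 1, 2 or 3 or without fresh 2 or 4 (adjusted p up to 0.0751, log2 difference -0.46 to -0.35 over all omissions). In the same comparison 9 of the 75 marker genes were called, beside 2.93% of all genes and features, and the part of cell composition was not tested.

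Kcnq1 and Osbpl5, both maternally expressed, had an unadjusted p under 0.01 between heated and fresh animals without passing. Kcnq1, which encodes a voltage-gated potassium channel, was at -2.90, -3.00, -3.28 and -3.21 in heated and -2.88, -2.30, -2.23 and -2.79 in fresh animals, a difference of -0.55 (SE 0.18, adjusted p = 0.117) in limma. The groups did not overlap, but the highest heated animal lay just below the lowest fresh one. The other Kcnq1 probe above background read -3.26, -2.97, -3.15 and -2.93 in heated and -3.43, -2.97, -2.91 and -2.87 in fresh animals. These overlapped, with a difference of -0.03 (SE 0.15, limma adjusted p = 0.934 over all probes), and the mean of both probes gave -0.29 (SE 0.12, limma adjusted p = 0.228), so the size of the Kcnq1 difference rests on the probe chosen. Its freeze-dried animals were at -2.53, -3.37, -2.99 and -2.87 and its irradiated animals at -2.86, -3.20, -2.97 and -2.88. Osbpl5, which encodes an oxysterol-binding protein, was at 4.04, 4.08, 4.13 and 4.04 in heated and 3.78, 3.86, 3.92 and 3.98 in fresh animals, a difference of 0.19 (SE 0.055, adjusted p = 0.084) in limma with no overlap. For Osbpl5, slide 2 minus slide 1 was 0.13 (SE 0.06) within fresh and 0.12 (SE 0.06) within irradiated animals. In all, 8 of the 38 genes had an unadjusted p under 0.05 (Dio3, Kcnq1, Osbpl5, Nnat, Impact, Peg10, Tssc4 and Zim1), beside 17.9% of all genes and features, and 6 did not overlap (Dio3, Kcnq1, Osbpl5, Zim1, Mcts2 and Sgce), beside 11.3%.

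Between irradiated and fresh animals 0 of 38 imprinted genes passed limma, beside 1.37% of all genes and features (0.51% lower, 0.865% higher), and 5 had an unadjusted p under 0.05, beside 16.9%. These 5 were Ndn (-0.24 (SE 0.087)), Impact (0.23 (SE 0.094)), Kcnq1 (-0.43 (SE 0.18)), Rasgrf1 (0.21 (SE 0.086)), which encodes an exchange factor that activates Ras in neurons, and Slc22a18 (0.24 (SE 0.10)). The other Kcnq1 probe had the opposite sign (0.053, SE 0.15). Impact was the 1 gene whose groups did not overlap, beside 9.08% of all genes and features. Heated against irradiated animals likewise had 0 of 38 called by limma, beside 1.01% of all genes and features (0.472% lower, 0.536% higher), and 8 at an unadjusted p under 0.05, beside 13.8%. Of these 8, only Ndn had the higher mean in heated animals (0.22 (SE 0.087)), and Nnat, Peg12, Dio3, Trappc9, Calcr, Slc22a18 and Tssc4 had the lower one. The groups did not overlap for 5 genes (Calcr, Peg12, Sgce, Trappc9 and Tssc4), beside 13.1%.

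**Figure D2:**
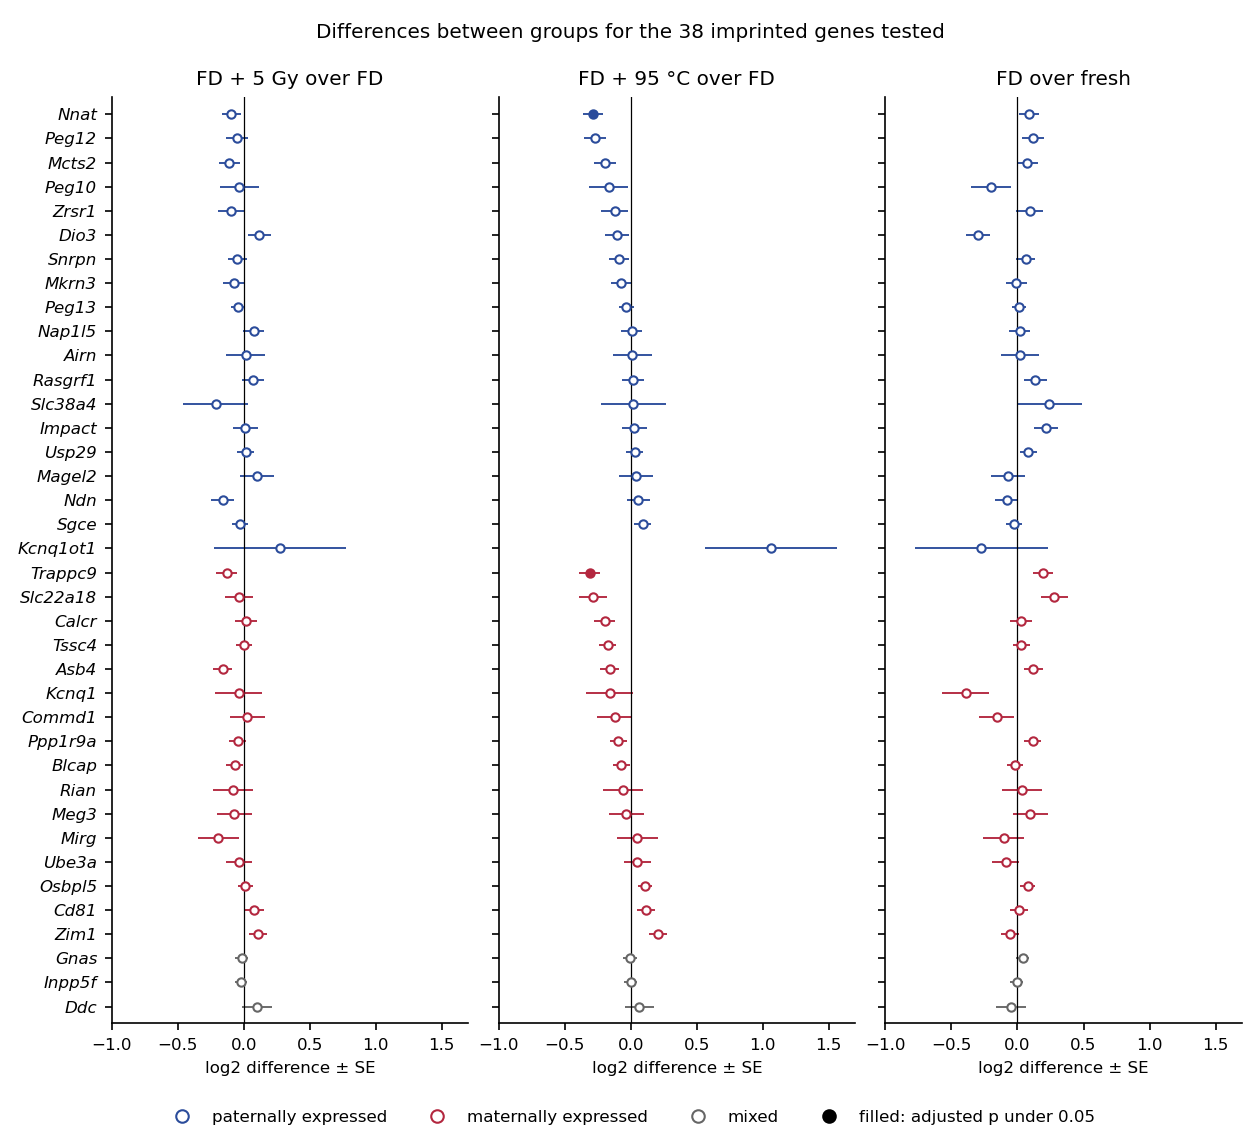
Log2 differences with their SE from limma for the 38 imprinted genes tested, in the irradiated over freeze-dried, heated over freeze-dried and freeze-dried over fresh comparisons, coloured by expressed allele. Filled points are called genes: Nnat and Trappc9 in the middle panel and none in the other 2, and Kcnq1ot1 has the widest error of all.

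Paternally and maternally expressed genes were described side by side without a test. Between heated and freeze-dried animals, 10 of the 19 paternally expressed genes were higher and 9 lower, with a median log2 difference of 0.01, 1 called (Nnat). Of the 16 maternally expressed genes, 5 were higher and 11 lower, with a median of -0.08, 1 called (Trappc9). All genes and features had a median of 0.02. Between irradiated and freeze-dried animals the medians were -0.03 (8 higher, 11 lower) for paternally and -0.04 (6 higher, 10 lower) for maternally expressed genes. Between freeze-dried and fresh animals they were 0.02 (12 higher, 7 lower) and 0.03 (10 higher, 6 lower). The 3 genes with mixed imprinting, Gnas, Inpp5f and Ddc, differed by -0.0046 to 0.07 between heated and freeze-dried animals and by -0.02 to 0.10 between irradiated and freeze-dried animals.

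The same was seen animal by animal, after each gene was centred on its mean over the 16 arrays. The mean over the 19 paternally expressed genes lay between -0.01 and 0.04 in heated, -0.05 and 0.01 in irradiated, -0.05 and 0.04 in freeze-dried and -0.06 and 0.03 in fresh animals. The mean over the 16 maternally expressed genes lay between -0.07 and 0.02 in heated, -0.05 and 0.02 in irradiated, -0.02 and 0.11 in freeze-dried and -0.02 and 0.05 in fresh animals. Both class means overlapped between all groups. Paternal minus maternal was above 0 in all 4 heated animals (0.01 to 0.07), and on both sides of 0 in irradiated (-0.01 to 0.01), freeze-dried (-0.16 to 0.06) and fresh animals (-0.08 to 0.06). Heated 1 and 4 lay within the range of the freeze-dried animals, and heated 2 and 3 lay above it. The shared sign rests on the use of means. By class medians, paternal lay below maternal in heated 1 (0.009 against 0.018) and heated 4 (-0.055 against -0.023). In heated 2 and 3 it lay above. All heated animals were on slide 2, and the paternal mean includes Kcnq1ot1, which was high in each of them. The part of either was not tested.

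**Figure D3:**
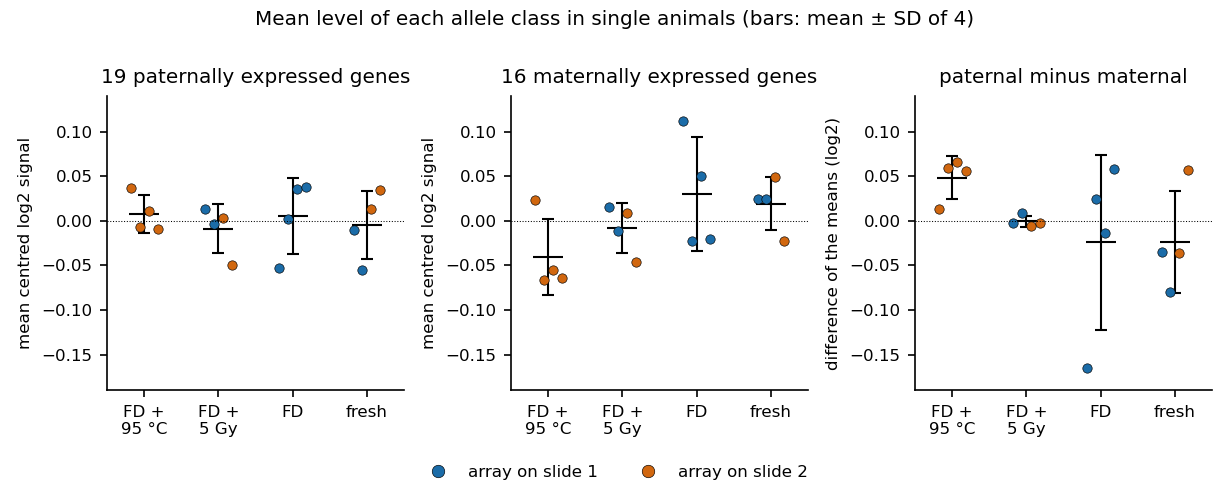
Mean centred log2 signal of the 19 paternally and the 16 maternally expressed genes and their difference in single animals, with mean and SD of 4 as bars and the slide as colour. The groups overlap in each class mean, and the difference is above 0 in all 4 heated animals, between 0.01 and 0.07. With class medians in place of means, the sign is not shared by all heated animals.

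Among the members of the Snrpn cluster on chromosome 7, Snrpn, which encodes a splicing factor subunit made mainly in neurons, was at 6.59, 6.60, 6.59 and 6.57 in heated, 6.74, 6.71, 6.57 and 6.48 in irradiated, 6.65, 6.61, 6.79 and 6.66 in freeze-dried and 6.76, 6.63, 6.44 and 6.62 in fresh animals. The heated animals were closer to each other than those of any other group, and all lay below the freeze-dried ones, but the difference was small, -0.088 (SE 0.073, adjusted p = 0.494) in limma. Ndn, which encodes a growth-restraining protein of postmitotic neurons, was at 6.31, 6.31, 6.20 and 6.28 in heated, 6.24, 6.18, 5.82 and 6.00 in irradiated, 6.31, 6.20, 6.11 and 6.26 in freeze-dried and 6.20, 6.22, 6.40 and 6.38 in fresh animals. Its 2 lowest values were irradiated 3 and 4, both on slide 2, while the fresh animals of slide 2 were its highest. Magel2, a ubiquitin ligase partner active in the hypothalamus, was at 2.71, 2.60, 2.63 and 2.72 in heated, 2.54, 2.68, 2.81 and 2.85 in irradiated, 2.53, 2.54, 2.70 and 2.74 in freeze-dried and 2.88, 2.24, 2.98 and 2.68 in fresh animals, where fresh 2 was the lowest of all 16. Mkrn3, a ring finger gene that restrains puberty in humans, ranged from 0.28 to 0.68 over all animals. Ube3a, the maternally expressed ubiquitin ligase gene of the same region, was at 2.81, 2.61, 2.62 and 2.65 in heated, 2.49, 2.56, 2.59 and 2.71 in irradiated, 2.35, 2.86, 2.76 and 2.53 in freeze-dried and 2.63, 2.87, 2.68 and 2.68 in fresh animals. Ube3a overlapped between all groups, and no difference of Snrpn, Ndn, Magel2, Mkrn3 or Ube3a passed limma in any of the 6 comparisons.

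On chromosome 12, the maternally expressed RNAs Meg3, Rian and Mirg are thought to be read in 1 direction and hold small RNA precursors: RefSeq places 1 miRNA hairpin within Meg3, 3 within Rian and 10 within Mirg. Meg3 was at 5.96, 5.81, 5.99 and 5.76 in heated, 5.81, 5.87, 5.93 and 5.75 in irradiated, 5.82, 5.74, 6.00 and 6.08 in freeze-dried and 6.25, 5.45, 5.85 and 5.70 in fresh animals. The fresh group held both its highest (fresh 1, the animal high in muscle markers) and its lowest value (fresh 2). Rian was at 4.83, 4.46, 4.63 and 4.66 in heated, 4.74, 4.75, 4.65 and 4.36 in irradiated, 4.95, 4.27, 4.76 and 4.83 in freeze-dried and 4.73, 4.32, 4.84 and 4.80 in fresh animals. Mirg was at 2.79, 2.48, 2.45 and 2.43 in heated, 2.22, 2.18, 2.48 and 2.29 in irradiated, 2.87, 2.45, 2.34 and 2.29 in freeze-dried and 2.98, 2.37, 2.73 and 2.29 in fresh animals. Its highest values were fresh 1, freeze-dried 1, heated 1 and fresh 3, and the last 3 were also the arrays with a high signal of the hypothalamic and pituitary hormone gene Pomc (2.85, 3.10 and 2.89 in freeze-dried 1, heated 1 and fresh 3, against -1.11 to -0.62 in the other 13). The part of Pomc-expressing tissue in the Mirg signal was not tested. The limma differences of Meg3, Rian and Mirg lay between -0.30 and 0.24 over the 6 comparisons, and none passed.

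Of the other paternally expressed genes, Peg10, a retrotransposon-derived gene essential for the placenta, was at -3.01, -3.05, -3.34 and -3.31 in heated, -3.13, -3.06, -3.00 and -2.99 in irradiated, -2.89, -2.80, -3.46 and -2.89 in freeze-dried and -3.18, -2.76, -2.56 and -2.74 in fresh animals. Heated animals were low as a group, but overlapped with irradiated animals, freeze-dried 3 and fresh 1. Its neighbour Sgce, which encodes a sarcoglycan mutated in human myoclonus-dystonia, ranged from 3.03 to 3.37 over all animals. Impact, which encodes an inhibitor of the kinase GCN2, was at 2.83, 2.56, 2.81 and 2.65 in heated, 2.69, 2.67, 2.72 and 2.71 in irradiated, 2.60, 2.57, 2.96 and 2.61 in freeze-dried and 2.44, 2.29, 2.61 and 2.54 in fresh animals. Each irradiated animal exceeded each fresh animal, and the means differed by 0.23 (SE 0.094, adjusted p = 0.237) in limma. Heated and freeze-dried animals overlapped with fresh ones. Zrsr1, a retrogene in an intron of Commd1, the deubiquitylase-family gene Usp29, the retrogene Nap1l5 and Rasgrf1 ranged over 0.57, 0.27, 0.35 and 0.49 on the log2 scale across the 16 animals. None of them passed limma in any comparison.

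Gnas, which encodes the stimulatory G protein alpha subunit and several transcripts of opposite imprinting, had the smallest range of the 38 genes over the 16 animals, 0.16, on its brightest probe. Its brightest probe was at 7.44, 7.43, 7.37 and 7.43 in heated, 7.46, 7.47, 7.36 and 7.33 in irradiated, 7.43, 7.39, 7.41 and 7.45 in freeze-dried and 7.32, 7.34, 7.38 and 7.48 in fresh animals. One of its 4 dimmer probes read 2.49, 2.45, 2.39 and 2.52 in irradiated and 2.78, 2.71, 2.66 and 2.67 in fresh animals. These did not overlap, and with each probe tested by itself in limma the log2 difference was -0.25 (SE 0.049, adjusted p = 0.0328), 1 of 67 imprinted probes, beside 1.09% of all 34261 probes. Freeze-dried animals were at 2.56, 2.50, 2.58 and 2.49 and heated animals at 2.52, 2.58, 2.54 and 2.48 on the same probe, below each fresh animal as well. The dimmest Gnas probe ranged more widely, from -4.20 in heated 2 to -2.63 in fresh 3. After heated 2, its lowest values were heated 4 (-4.02), fresh 2 (-3.70) and freeze-dried 2 (-3.61). These arrays were also low in Hox genes, and the part of hindbrain tissue in that signal was not tested. Which Gnas transcripts each probe detects was not examined.

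The antisense RNA Kcnq1ot1, which silences genes of its cluster on the paternal chromosome, varied most among animals, with a pooled SD within groups of 0.77 on the log2 scale against a median of 0.114 over the 38 genes and 0.145 over all genes and features. Its brightest probe was at 3.32, 3.01, 3.32 and 3.17 in heated, 2.60, 2.41, 3.11 and 1.55 in irradiated, 1.05, 1.1, 3.03 and 3.37 in freeze-dried and 2.32, 1.57, 3.03 and 2.74 in fresh animals. Freeze-dried animals fell into a low and a high pair, and the heated animals, all high, overlapped with the high pair. The heated minus freeze-dried difference of 1.06 (SE 0.50, adjusted p = 0.214) in limma is the largest of the 38 and did not pass. The second probe read 2.50, 2.30, 2.53 and 2.34 in heated and 2.05, 1.53, 2.30 and 2.51 in freeze-dried animals, with freeze-dried 1 and 2 again the low ones. Slc38a4 and Kcnq1 were next in spread, with ranges over the 16 animals of 1.41 and 1.14, and 20 of the 38 genes stayed within 0.5.

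**Figure D4:**
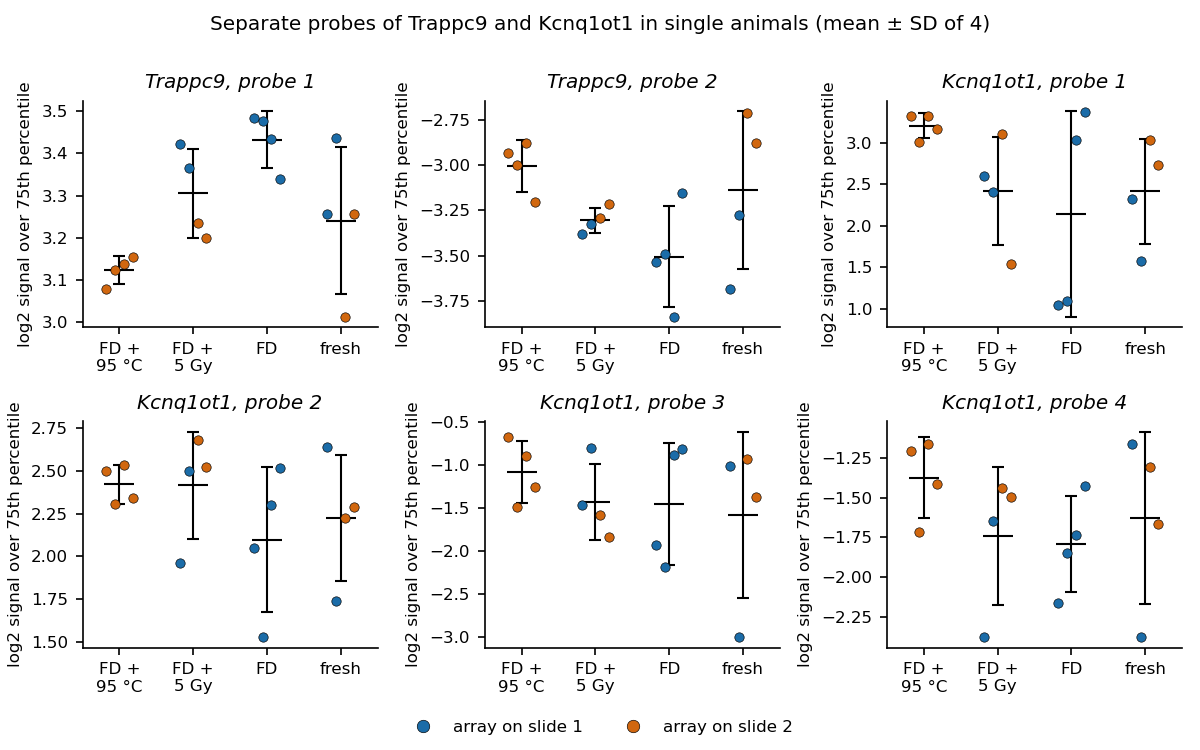
Log2 signal of the 2 Trappc9 probes and the 4 Kcnq1ot1 probes above background in single animals, numbered from the brightest, with mean and SD of 4 as bars and the slide as colour. The 2 Trappc9 probes run in opposite directions in heated set against freeze-dried animals, and the brightest Kcnq1ot1 probe splits the freeze-dried animals into values near 1.1 and above 3.

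Of the 38 genes, 20 had more than 1 probe above background. Between heated and freeze-dried animals the probes of 7 of these 20 differed in sign (Airn, Ddc, Meg3, Ppp1r9a, Sgce, Slc38a4 and Trappc9). Trappc9 was the one with an unadjusted p under 0.05 on both sides. Probes differed in sign in 8 of the 20 genes between irradiated and freeze-dried, 11 between freeze-dried and fresh, 12 between irradiated and fresh, 6 between heated and fresh and 7 between heated and irradiated animals. Between heated and freeze-dried animals the probes of the other 13 genes ran the same way, among them the 3 of Snrpn. Tested one by one with limma, 2 of the 67 imprinted probes were called between heated and freeze-dried animals, beside 3.83% of all probes, and these were the Nnat probe and the brighter Trappc9 probe. The Dio3 probe was the 1 called between heated and fresh animals, beside 2.73%. No imprinted probe was called between irradiated and freeze-dried (0% of all probes), freeze-dried and fresh (0.00292%) or heated and irradiated animals (0.788%).

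Genes of the same cluster were compared across the 16 animals in 14 pairs, with permutation tests (two-sided, 100000 resamples). The shuffles took no account of group or slide, so differences between groups and slides enter r and p. Asb4 and Calcr, both maternally expressed and on either side of Sgce, Peg10 and Ppp1r9a in the cluster on chromosome 6, had the highest r (Pearson r = 0.61, permutation p = 0.012, adjusted 0.169; Spearman rho = 0.58, permutation p = 0.0204, adjusted 0.164). Without freeze-dried 2 and fresh 1, the animals farthest from the Asb4 median, r was 0.54, and it was 0.58 within slide 1 and 0.70 within slide 2. These 2 animals also stood apart in markers of other tissues. Meg3 and Rian followed (r = 0.52, permutation p = 0.0396, adjusted 0.248; rho = 0.44, permutation p = 0.0924, adjusted 0.216). Without fresh 1 and 2 their r was 0.41, with 0.62 within slide 1 and 0.26 within slide 2. Trappc9 and Peg13 had r = 0.48 (permutation p = 0.0531, adjusted 0.248) and rho = 0.54 (permutation p = 0.034, adjusted 0.164), 0.11 within slide 1 and 0.35 within slide 2, and 0.40 without fresh 3 and freeze-dried 1. Peg10 and Sgce, which share a promoter region and the expressed copy, ran against each other (r = -0.45, permutation p = 0.0777, adjusted 0.272; rho = -0.54, permutation p = 0.0352, adjusted 0.164; -0.41 without freeze-dried 3 and fresh 3), with -0.55 within slide 1 and -0.37 within slide 2. The r of the other 10 pairs lay between -0.31 and 0.40, the last being Meg3 and Mirg, with 0.06 without fresh 1 and 2, and 0 of the 14 pairs passed the adjustment. Among them, Usp29 and Zim1 had an unadjusted permutation p of 0.0498 by rho (0.51, adjusted 0.174). After centring each gene on its group means, r was 0.74 for Asb4 and Calcr and 0.52 for Meg3 and Rian. It was 0.60 for Trappc9 and Peg13 and -0.48 for Peg10 and Sgce, without a test.

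**Figure D5:**
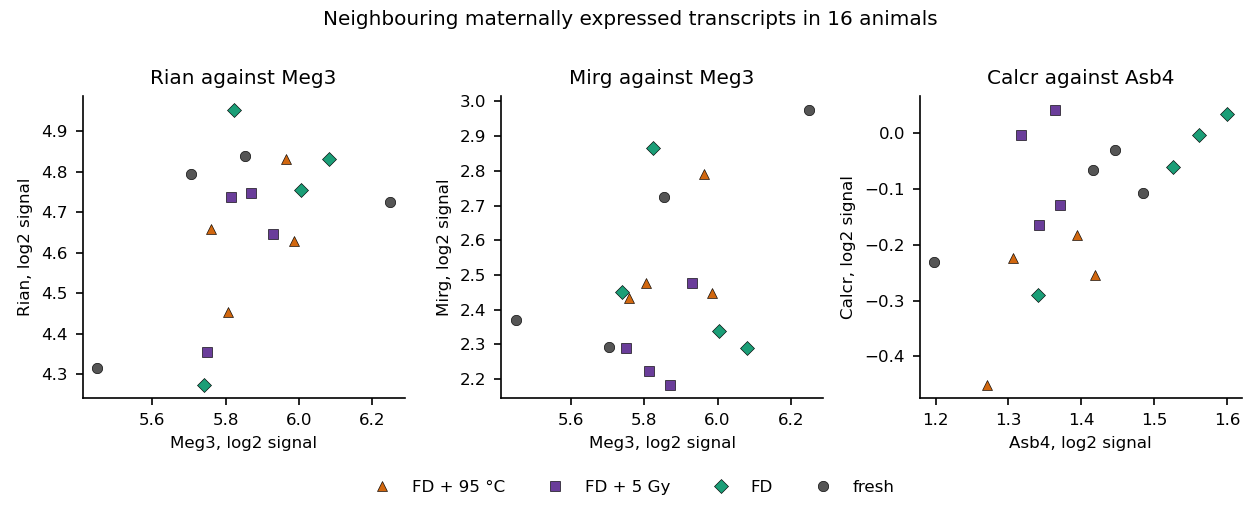
Log2 signals of Rian and Mirg against Meg3 and of Calcr against Asb4 in 16 animals, with a marker for each group. Animals with more Asb4 tended to have more Calcr (r = 0.61), but no pair passed the adjustment over 14 pairs.

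A pair of related gene lists was set beside these. Of 11 imprinted growth regulators, 10 were tested, and H19, the non-coding RNA opposite Igf2, and Cdkn1c, a cell cycle inhibitor, fell between heated and freeze-dried animals. H19 averaged 4.44 ± 0.04 in heated and 4.81 ± 0.13 in freeze-dried animals (SD, n = 4 each; log2 difference -0.37, SE 0.082, limma adjusted p = 0.027). Cdkn1c averaged 5.09 ± 0.01 in heated and 5.37 ± 0.11 in freeze-dried animals (-0.27, SE 0.063, limma adjusted p = 0.032). These 2 of 10 stand beside 3.86% of all genes and features called (1.36% lower), and the median over the 10 was -0.18, beside 0.02 over all. In limma 0 of the 10 passed in the irradiated over freeze-dried or freeze-dried over fresh comparisons. With the slide as a block, no gene or feature of the array passed between heated and freeze-dried animals, H19 and Cdkn1c included.

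Of 16 factors that keep imprints, 14 were tested. Hells, which encodes a chromatin remodeller needed for DNA methylation, fell between heated and freeze-dried animals, with -3.40 ± 0.18 in heated and -2.87 ± 0.16 in freeze-dried animals (SD, n = 4 each; log2 difference -0.54, SE 0.12, limma adjusted p = 0.0292). It was 1 of 14 called, beside 3.86% of all genes and features, and with the slide as a block none of all genes and features passed. Slide 2 minus slide 1 was -0.39 (SE 0.14) for Hells within fresh and -0.05 (SE 0.14) within irradiated animals. Arid4a, a chromatin adaptor that acts at the Snrpn imprinting centre in mice, had the next call, in other comparisons: it averaged -0.82 ± 0.12 in irradiated and -0.27 ± 0.20 in fresh animals (SD, n = 4 each; log2 difference -0.54, SE 0.10, limma adjusted p = 0.0239), 1 of 14 beside 1.37%. Heated animals exceeded irradiated ones in Arid4a by 0.46 (SE 0.10, limma adjusted p = 0.0483), 1 of 14 beside 1.01%. Slide 2 minus slide 1 was -0.33 (SE 0.11) for Arid4a within fresh and -0.15 (SE 0.11) within irradiated animals. Its relative Arid4b differed by -0.29 (SE 0.078, limma adjusted p = 0.597) between irradiated and freeze-dried animals and by -0.28 (SE 0.078, limma adjusted p = 0.0605) between heated and freeze-dried animals. The methyltransferase gene Dnmt3a differed by 0.23 (SE 0.067, limma adjusted p = 0.0682) between heated and freeze-dried animals. No imprint-keeping factor passed limma between irradiated and freeze-dried or between freeze-dried and fresh animals.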

How the data were processed

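RNA from 16 P1 mouse brains was measured on one-colour Agilent arrays. Per the file headers and the submitters' processing notes, the authors read the scans in Agilent Feature Extraction 11.0.1.1, and the deposited spot intensity used here had its background subtracted within the array. The quality marks in the same deposited files are other values, 0 or 1 per spot. The deposited value table holds log2 values of the same arrays, per the file headers, for 31313 probes with column medians of 9.335 to 9.348; how it was scaled is not given in the sources used here, and it served as an alternative.

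Spots of a probe were averaged, outlier spots left out, and each array scaled to its 75th percentile on the log2 scale. A probe was kept if some group had it well above background on each of its 4 arrays, and the brightest stood for a gene. Groups were compared in R 4.3.3 with limma 3.58.1 over all 16 arrays (12 residual degrees of freedom), with Benjamini-Hochberg adjustment over 26477 genes and features and a threshold of 0.05. Tested on simulated data for the heated over freeze-dried comparison (26450 genes, few of them moved), the fit recovered 4.33% of changes of 0.3 on the log2 scale, 49.3% of 0.5 and 84% of 1. Values were given animal by animal for genes called, genes with an unadjusted p under 0.01, and 13 well-studied imprinted genes. The members and lists were chosen with earlier results of these data known. Spots lacked the mean signal in the files used, so the normexp alternative took the median signal. Alternatives covered scaling, filter, probe choice, slide, pairing, array weights, single arrays and the samples fitted. Sequences came from RefSeq tables on GRCm38.p6, and array positions were not used.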

Additional observations from a re-analysis of the deposited data

Results flagged for a closer look

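In 9 of 152 sets of 4 animals (38 genes in 4 groups), 1 animal lay far from the other 3, with a gap to the nearest that exceeded Dixon's 95% critical value. Chance alone marks about 1 in 20 such sets. Freeze-dried 3 was the low animal for Peg10, at -3.46 against -2.89 to -2.80 in the other 3, and the high animal for Impact, at 2.96 against 2.57 to 2.61. In the heated group, heated 1 was high for Mirg (2.79 against 2.43 to 2.48), heated 3 low for Gnas (7.37 against 7.43 to 7.44), heated 4 low for Inpp5f, a phosphoinositide phosphatase gene (5.12 against 5.20 to 5.21), and heated 2 low for Ddc, the aromatic amino acid decarboxylase gene of monoamine neurons (1.00 against 1.49). Heated 2 was also low in hindbrain and cerebellum markers, whose part in the Ddc signal was not tested. Irradiated 4 was low for Peg13 (5.19 against 5.37 to 5.39). Freeze-dried 4 was low for Cd81 (5.64 against 5.74 to 5.76), and fresh 2 was high for Mcts2 (2.24 against 1.92 to 1.97).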

How the results depend on the processing

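Between heated and freeze-dried animals, the 2 called imprinted genes became 0 with normexp and quantile normalization (1320 of all genes and features called, against 1021), median scaling (798), the deposited table (0), no filter (609), a fixed slide term (0; limma gave 2102 at an unadjusted p under 0.05) or a random slide block (41), without the 4 arrays low in Hox genes (12) and with Y-linked signal added as a covariate, chosen after seeing the data (142). They became 1 with the mean of probes (Nnat, while Trappc9 turned to 0.10), 4 with only the 8 arrays compared (2026; Peg12 and Slc22a18 added) and 0 to 3 when 1 array was left out (181 to 1553). Array weights called 3 (2995). Between heated and fresh animals the 1 call became 0 with quantile scaling (684, against 775), the deposited table (312), no filter (267), within slide 2 (0), without the arrays low in Hox genes (0) and with only the 8 arrays compared (42), and ran from 0 to 1 over single omissions (254 to 1127). With normexp it was Kcnq1 (-0.54, limma adjusted p = 0.0467) in place of Dio3. Between irradiated and fresh animals the 0 became 1 with array weights (Ndn, 599 against 364) and with each probe tested (the Gnas probe). The other comparisons stayed at 0 called imprinted genes in each alternative run, and no neighbour pair passed in any. The causes were not tested.

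The labels do not say whether replicate numbers mark pairs. Same-numbered animals' deviations correlated between -0.39 and 0.38. All 4 were positive between heated and fresh animals (0.08 to 0.38), and the signs were mixed in each other comparison. With 4 animals a group, these values cannot decide whether pairs exist. With the replicate block, 2 imprinted genes were called between heated and freeze-dried animals (limma adjusted p = 0.0476 for Nnat and 0.0425 for Trappc9) and 1 between heated and fresh animals (Dio3, 0.0463), and the block changed no call of an imprinted gene. In the simulated data, with 4 animals a group and few genes moved, changes under about 0.5 on the log2 scale were often missed. How often this held for the imprinted genes was not tested.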
